A study of Mus musculus with 8 samples.

Results

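The genes described here are 8 genes of the polyamine pathway: Sat1, which starts polyamine breakdown, the synthesis genes Odc1, Srm, Sms and Amd1, the antizyme genes Oaz1 and Oaz2, and the antizyme inhibitor gene Azin1. They were taken by name and are 8 of the 28014 genes counted. They were chosen by their measured levels over the cell types, Sat1 being high and the synthesis genes low in pre-hemogenic endothelium, so levels and steps between cell types are a description with no test. Tests are kept for genotype and for surface tags. RNA and antibody tags were counted by CITE-seq, which reads messenger RNA and surface protein in the same single cells. The cells were CD31-positive cells sorted from the aorta-gonad-mesonephros region (AGM) of mouse embryos at E10.5, and each library was a pool of 2 to 5 embryos of 1 genotype. The 5 WT libraries were of C57BL/6 strain, and the 3 Meis1-flox/VE-Cre libraries were of the line of that name, labelled Meis1-knockout. In that line, Cre driven by the VE-cadherin promoter acts on floxed Meis1 in endothelial cells, so blood cells that descend from them also carry the deletion. The strain label differed between the groups, so strain and genotype cannot be told apart.

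Each cell carried a cluster name in the deposited annotation, and there were 10 names. The endothelial ones were vEC_1 to vEC_4, arterial endothelium (aEC) and its pre-hemogenic part (pre-HE). The transition from endothelium to blood was named EHT, and the blood types were erythro-myeloid progenitors (EMP), Megakaryocytes and Myeloid cells. EMP stand after EHT only in the order used here, since the study takes them to be likely of yolk sac origin. For each library and cell type, UMIs (1 UMI being 1 captured molecule) were added up over cells, and a level below is in normalized CPM, the UMIs of a gene relative to all UMIs of that sum after TMM scaling. Levels of single cells, of all cells of a library and of cells split by a tag are plain CPM, without TMM. Values with an error are the mean ± SD over libraries, n = 5 for WT and n = 3 for Meis1-flox/VE-Cre, except Megakaryocytes with n = 4 for WT because 1 library had under 10 such cells. The kit reads only the 3′ end of each transcript, so UMIs were not divided by gene length, and a level in 1 gene relative to another is a ratio of captured molecules, not of enzyme.

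Total UMIs per library ran from 20484881 to 79429129. Median UMIs per cell were 26572 to 28553 in WT 1 to 4, 12720 in WT 5 and 9612 to 14895 in the Meis1-flox/VE-Cre libraries. Depth thus largely moved with genotype, and among WT libraries WT 5 alone had a depth like the other group's. Cell names of WT 5 start with Mf_, though its label is WT. In its knockout experiments the study also calls floxed littermates without Cre WT, so whether WT 5 carried floxed Meis1 cannot be told. Pairs of libraries shared few cell barcodes, and 33 of 15135 barcodes occurred in more than 1 library. The row of a Cre transgene, CreERT2, had 0 UMIs in every WT library and 3 to 19 UMIs in the Meis1-flox/VE-Cre libraries. Meis1 had 13.7 to 26.5 CPM over all cells in WT and 9.16 to 13.8 CPM in Meis1-flox/VE-Cre. A 3′ read lies outside the floxed exon, so the level of Meis1 does not check the deletion.

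Polyamines (putrescine, spermidine and spermine) are small, positively charged molecules that bind nucleic acids and are needed by growing cells. Odc1 makes putrescine from ornithine, Amd1 supplies the aminopropyl donor, and Srm and Sms add aminopropyl groups to give spermidine and spermine. Sat1 acetylates spermidine and spermine, which marks them for export or oxidation. Antizyme binds Odc1 protein and delivers it to the proteasome, and the product of Azin1 binds antizyme in its place and so spares Odc1. Much of this control acts on translation and protein turnover, which RNA counts do not show. In the AGM, blood stem and progenitor cells emerge from arterial endothelium through a hemogenic state and EHT.

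From aEC to pre-HE, Sat1 and Odc1 are the members with the largest log2 ratios in opposite directions, and the 150 bases before the first annotated start of each are shown for that reason. The sequences are from RefSeq on GRCm38.p6, the build the submitters' processing notes name as mm10, and are printed 5′ to 3′ on the strand of the gene. Capitals mark matches to GGGCGG on either strand, the core of the GC box.

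Sat1, chrX:155216450-155216599, minus strand: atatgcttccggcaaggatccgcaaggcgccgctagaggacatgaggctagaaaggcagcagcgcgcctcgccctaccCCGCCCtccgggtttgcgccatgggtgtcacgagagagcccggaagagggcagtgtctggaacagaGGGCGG
Odc1, chr12:17544658-17544807, plus strand: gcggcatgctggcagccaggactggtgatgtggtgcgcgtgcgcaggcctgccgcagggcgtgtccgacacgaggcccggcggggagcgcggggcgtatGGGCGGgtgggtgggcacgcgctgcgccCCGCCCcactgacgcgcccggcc

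Both windows held 2 matches, and 28.6% of 32851 windows of the same length held at least 1. The window of Oaz2 held 3, that of Amd1 held 1, and those of Oaz1 and Sms held 0. CACGTG, the core E-box bound by Myc and related proteins, and TGACAG, a motif of Meis family proteins, were also searched on both strands. They were in 4.30% and 9.67% of all windows and in none of the 6 member windows. Such matches describe letters in a window and not binding. Promoter windows were matched for 6 of the 8 genes, and Srm and Azin1 are only named. On the same build the 8 genes lie on chromosomes X (Sat1 at 155213126 to 155216449, Sms at 157443851 to 157492287), 12 (Odc1 at 17544808 to 17551502), 4 (Srm at 148591513 to 148594619), 10 (Amd1 at 40287458 to 40302188, Oaz1 at 80826656 to 80829290), 9 (Oaz2 at 65676548 to 65690300) and 15 (Azin1 at 38487430 to 38519294).

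The names of the cell types were compared with their markers. Summed endothelial markers (Cdh5, Pecam1, Kdr, Eng and Tie1) were at 2312 CPM in WT pre-HE, 1342 in aEC, 332 in EHT and 77.6 in EMP, and summed arterial markers were at 1122, 206, 42.2 and 3.27 CPM. Summed hemogenic markers (Runx1, Gfi1 and Spi1) were at 7.94 CPM in WT pre-HE, from 0 to 24.3 over libraries, at 1.99 CPM in aEC and at 427 CPM in EHT. The genes by which the study describes pre-HE (Cd44, Procr and Meis1) summed to 15.7 CPM in aEC, 149.8 in pre-HE and 193 in EHT. The pre-HE cells carried endothelial and arterial RNA at high levels and hemogenic RNA close to the level of aEC. Erythroid RNA, from 5 globin genes, was found at 45.0 to 175 CPM in WT pre-HE and 29.6 to 159 CPM in WT aEC.

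Sat1 stood out in pre-HE. Its level was 1561, 1263, 1445, 1783 and 1234 CPM in pre-HE of WT 1 to 5, on 970, 312, 264, 2354 and 218 UMIs. In aEC of the same libraries it was 174, 184, 183, 278 and 175 CPM, and in EHT 42.3, 45.0, 51.4, 55.0 and 46.3 CPM. Every pre-HE value was above every aEC value, and every aEC value above every EHT value. In the Meis1-flox/VE-Cre libraries the levels were 1316, 1348 and 1603 CPM in pre-HE, 188, 188 and 174 CPM in aEC and 49.9, 69.6 and 53.1 CPM in EHT, in the same order.

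Over the 10 cell types, WT means of Sat1 ran from 1457 ± 226 CPM in pre-HE to 32.2 ± 2.31 CPM in vEC_3. Next came Myeloid cells at 381 ± 109 CPM and then aEC at 199 ± 44.8 CPM, with overlapping ranges. EMP (59.2 ± 6.34), Megakaryocytes (55.8 ± 6.79), vEC_4 (53.3 ± 10.6), vEC_1 (50.6 ± 7.40) and EHT (48.0 ± 5.15 CPM) followed. Neighbours among these overlapped in range. Below them vEC_2 had 35.4 ± 1.56 CPM, and its range was apart from that of EHT. The 4 venous clusters thus stood low, arterial endothelium above them, and pre-HE above every other type.

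**Figure D1:**
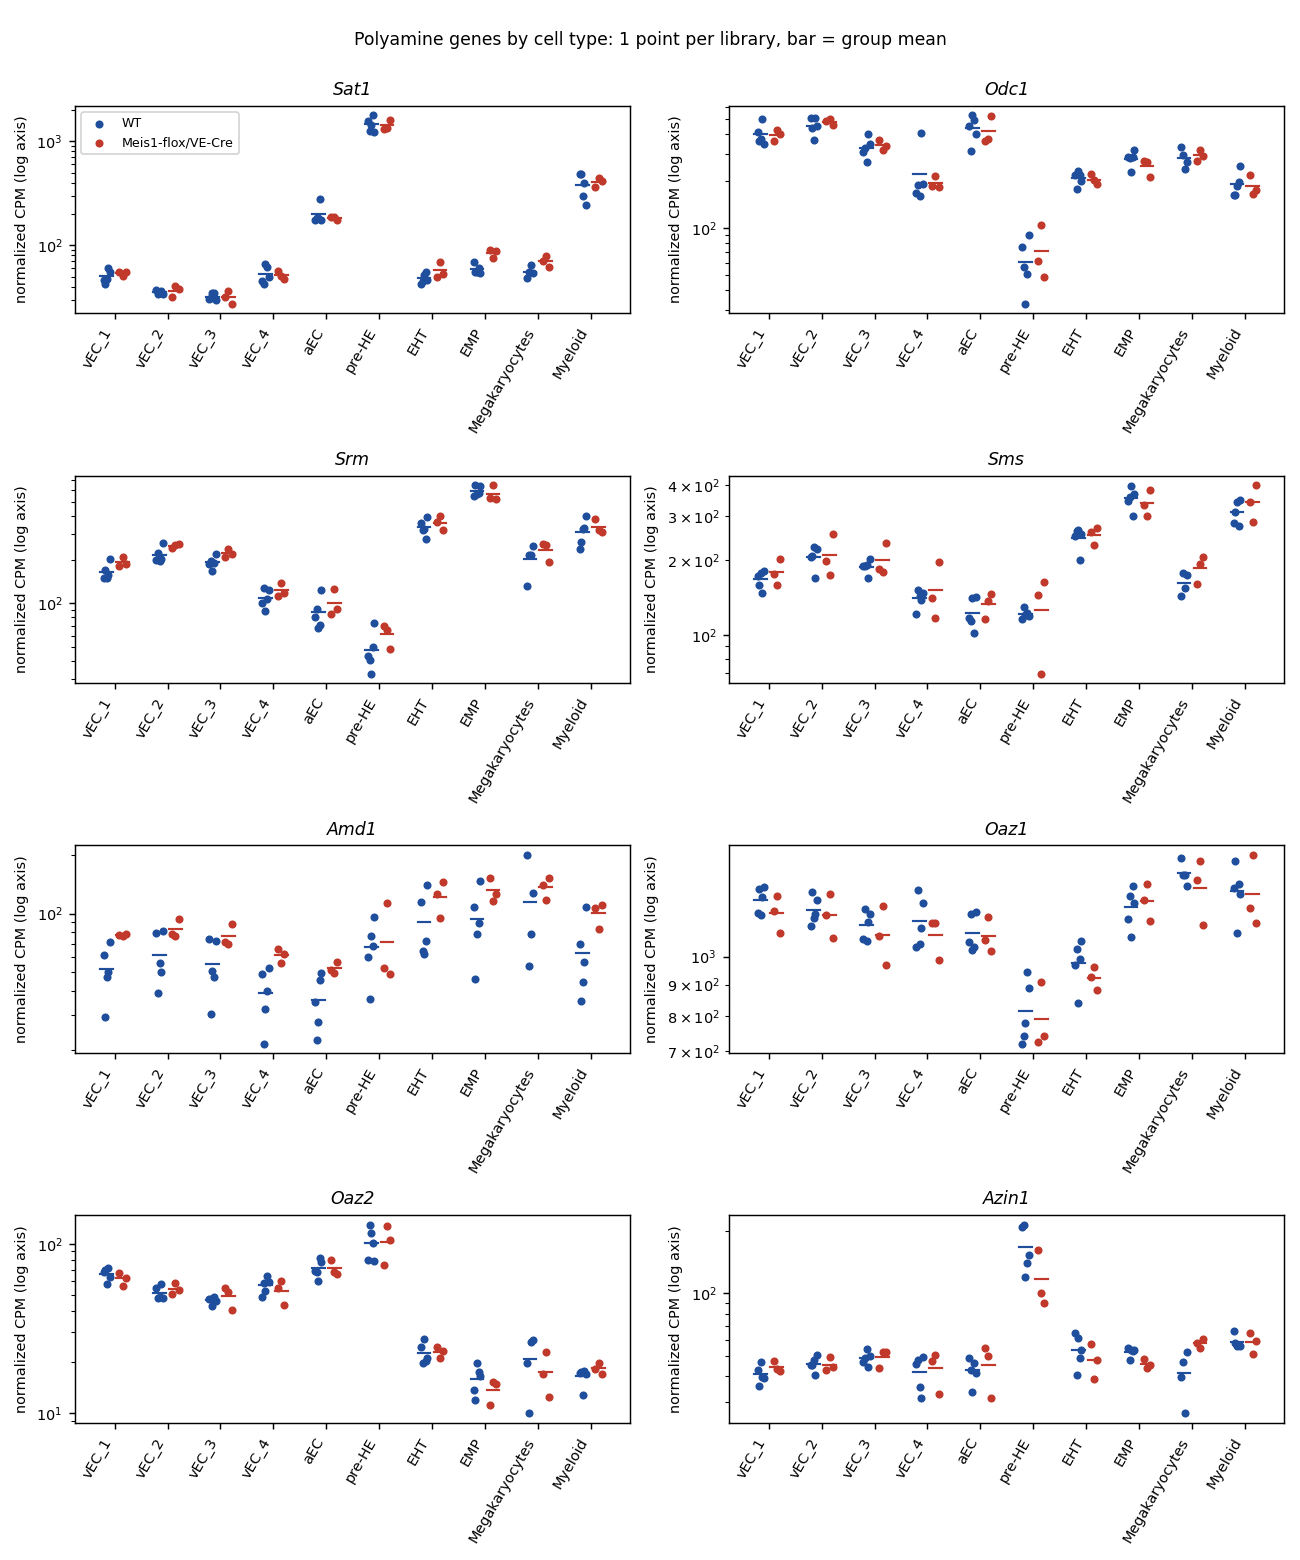
Normalized CPM on a log axis for the 8 genes in the 10 cell types, with 1 point per library (blue, WT; red, Meis1-flox/VE-Cre) and a bar at the mean of each group. Sat1 and Azin1 were highest and Odc1, Srm and Oaz1 lowest in pre-HE, and Oaz2 was higher in the 6 endothelial types than in EHT and the blood cell types.

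Sat1 was high across pre-HE cells and not in a few of them alone. The middle pre-HE cell had 789 to 1867 CPM over the WT libraries, against 70.8 to 124 CPM for the middle aEC cell. Of the pre-HE cells, 61.1% to 100% per WT library and 72.4% to 86.7% per Meis1-flox/VE-Cre library were above the 95th percentile of the aEC cells of their own library. These shares rest on few cells, 11 to 87 per WT library and 15 to 33 per Meis1-flox/VE-Cre library. The 100% was of 11 cells in WT 3 and the 61.1% of 18 cells in WT 2. The 10th percentile of pre-HE cells was 274 to 726 CPM in WT, while that of aEC cells was 0 CPM in every library. In aEC, Sat1 was uneven: the tenth of cells with the most UMIs of the gene held 42.2% to 51.2% of them in WT libraries. Pre-HE cells had fewer UMIs in all than aEC cells, with medians of 8851 to 15263 and 9705 to 21911 per WT library. With every cell thinned to 5000 UMIs, 95.5% ± 6.95 of WT pre-HE cells and 46.1% ± 4.30 of WT aEC cells held a Sat1 UMI (98.7% and 70.7% unthinned), against 17.0% ± 1.47 in vEC_3, the type with the lowest level. Of EHT cells, 0% per WT library and at most 1.96% per Meis1-flox/VE-Cre library were above the aEC 95th percentile.

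Odc1, the first enzyme of synthesis, moved the other way. In aEC of WT 1 to 5 it had 451, 313, 530, 495 and 404 CPM, and in pre-HE 75.6, 56.7, 32.8, 50.8 and 90.6 CPM. In EHT it had 219, 178, 234, 219.8 and 202 CPM. No pre-HE value reached any value of aEC or EHT, though the pre-HE levels rest on 47, 14, 6, 67 and 16 UMIs. Pre-HE was the lowest of the 10 cell types in WT (61.3 ± 22.4 CPM), and its range was apart from that of Myeloid cells above it (192 ± 36.4 CPM). The highest means, in vEC_2 (453 ± 58.4), aEC (439 ± 84.6) and vEC_1 (399 ± 61.2 CPM), had overlapping ranges. The Meis1-flox/VE-Cre libraries had 61.6, 105 and 48.8 CPM in pre-HE and 362, 371 and 522 CPM in aEC.

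Srm, which makes spermidine, had its highest WT level in EMP and its lowest in pre-HE. Levels were 80.7, 91.3, 67.8, 71.3 and 123.0 CPM in aEC of WT 1 to 5, from 32.8 to 73.6 CPM in pre-HE, on 27, 10, 6, 66 and 13 UMIs, and 359, 320.5, 325, 279 and 395 CPM in EHT. The ranges of aEC and pre-HE overlapped, but the level in pre-HE was the lower in each of the 5 libraries. In EMP the level was 594 ± 47.6 CPM, apart from the range of EHT. Sms, which makes spermine, was at 122.9 ± 17.5 CPM in aEC and 121 ± 5.14 CPM in pre-HE, and at 246 ± 26.1 CPM in EHT and 354 ± 36.2 CPM in EMP. Its lowest WT mean of the 10 types was also in pre-HE, but close to that of aEC.

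Amd1 was spread widely between libraries of the same type. WT levels ran from 22.4 to 49.6 CPM in aEC, 36.4 to 96.2 in pre-HE, 62.4 to 139.6 in EHT and 45.9 to 147 CPM in EMP, and the ranges of all neighbours in the order of the 10 types overlapped. Within each WT library the level in pre-HE was above that in aEC. Amd2, a near-identical copy on the same chromosome, had 0.214 to 2.20 CPM over all cells of a library. Reads of the 2 genes may have been split or dropped in counting, so the level of Amd1 is uncertain.

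The sum of the 4 synthesis genes was 684 ± 85.5 CPM in WT aEC, 298 ± 47.7 in pre-HE, 884 ± 88.2 in EHT and 1321 ± 88.9 CPM in EMP. Sat1 relative to that sum changed sign on the log2 scale. The log2 ratio was -1.80 ± 0.32 in aEC, 2.29 ± 0.35 in pre-HE, -4.20 ± 0.27 in EHT and -4.48 ± 0.21 in EMP. In pre-HE there were thus 4.99 molecules of Sat1 RNA captured for each molecule of the 4 synthesis genes together, while in EHT there were 18.7 of the synthesis genes for each of Sat1. Among the other types the log2 ratio ran from -4.72 ± 0.12 in vEC_2 to -1.24 ± 0.66 in Myeloid cells, and pre-HE was the only type above 0 in any library. In Meis1-flox/VE-Cre the ratio was -1.93 ± 0.27, 2.10 ± 0.24, -4.04 ± 0.28 and -3.92 ± 0.18 in aEC, pre-HE, EHT and EMP.

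**Figure D2:**
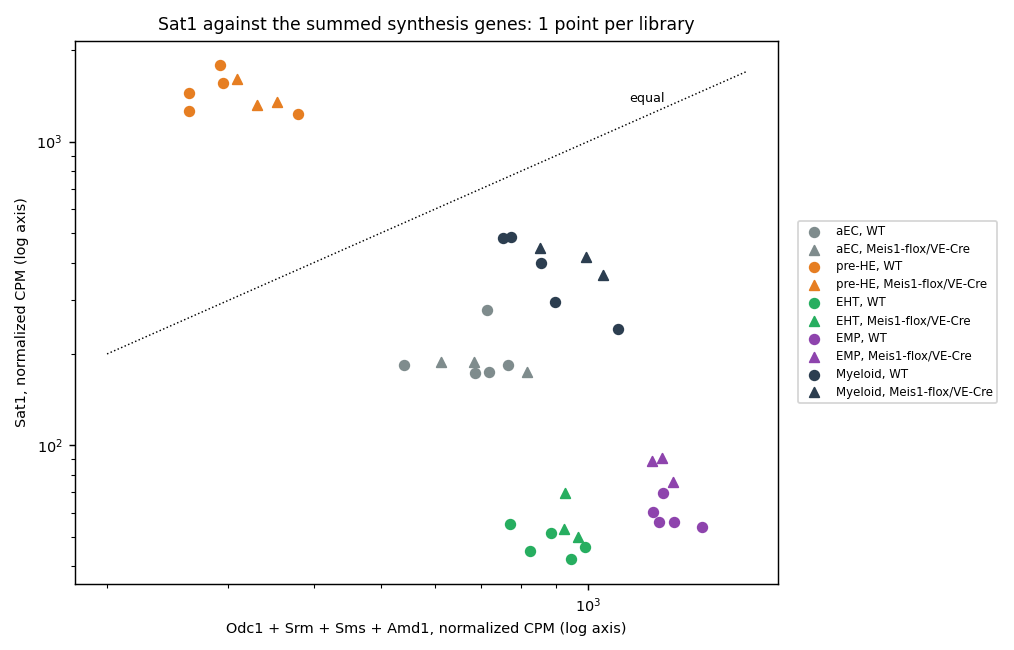
Sat1 against the sum of Odc1, Srm, Sms and Amd1, both in normalized CPM on log axes, with 1 point per library (circles, WT; triangles, Meis1-flox/VE-Cre) for 5 cell types; the dotted line marks equal levels. All 8 pre-HE points lie above the line, with Sat1 from 1234 to 1783 CPM, and all points of the other 4 types lie below it.

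The make-up of the synthesis sum also changed. Odc1 was 63.7% ± 6.27 of it in WT aEC, 20.2% ± 5.30 in pre-HE, 24.0% ± 3.37 in EHT and 21.1% ± 1.92 in EMP. The synthesis sum of EHT and EMP was thus higher than that of aEC with less Odc1 in it, and Srm and Sms made up the larger part. In venous endothelium the Odc1 share was 42.2% to 50.8% by WT mean.

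The genes that act on Odc1 protein did not move as one. Oaz1, the major antizyme, was the most abundant of the 8 genes in 9 of the 10 cell types and varied least, from 815 ± 97.8 CPM in pre-HE to 1368 ± 58.7 CPM in Megakaryocytes, with overlapping ranges between all neighbours in the order. Oaz2, a second antizyme, was an endothelial gene in these data. It had 101 ± 21.8 CPM in WT pre-HE and 71.4 ± 8.78 in aEC, and the lowest WT mean of the 6 endothelial types was 46.3 ± 1.96 CPM in vEC_3. EHT had 22.6 ± 3.17 CPM, and its range was apart from that of vEC_3. EMP had 15.9 ± 3.08 CPM.

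Azin1, the inhibitor of antizyme, was highest in pre-HE. It had 209, 214, 120, 141 and 153 CPM in pre-HE of WT 1 to 5, against 49.1, 42.7, 33.4, 46.4 and 41.2 CPM in aEC and 64.5, 40.4, 60.8, 48.8 and 53.2 CPM in EHT. The pre-HE range lay above those of all 9 other types, whose WT means were between 40.8 and 58.4 CPM. In Meis1-flox/VE-Cre pre-HE it had 163, 100.3 and 89.5 CPM, again above the range of every other type. In pre-HE the highest levels of Sat1 and Azin1 thus stood beside the lowest of Odc1.

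Each step between cell types was taken as a log2 ratio within a library, with 1 CPM added to both levels. A gene was counted as higher or lower where the WT mean was past 1.5-fold and all 5 WT libraries had the same sign. From aEC to pre-HE, 3 of the 8 genes were higher and 2 lower, beside 10.3% and 13.3% of the 9289 genes at or above the level minimum. Sat1 was higher by 2.88 ± 0.19 (7.36-fold), and 1.51% of all genes had a larger ratio. Azin1 was higher by 1.93 ± 0.27 and Amd1 by 0.88 ± 0.34. Odc1 was lower with a log2 ratio of -2.88 ± 0.74 (7.35-fold), and Srm with -0.86 ± 0.25. Sms (-0.01 ± 0.23), Oaz1 (-0.43 ± 0.20) and Oaz2 (0.48 ± 0.42) were not past the rule. Scaling by total UMIs in place of TMM moved the median of all genes by 0.17 at this step and turned the value for Sms to 0.19.

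From pre-HE to EHT, 3 of the 8 genes were higher and 3 lower, beside 22.1% and 19.3% of 9411 genes. Sat1 was lower with a log2 ratio of -4.89 ± 0.19, which is 29.6-fold, and 99.7% of all genes had a larger ratio. Oaz2 (-2.10 ± 0.37) and Azin1 (-1.61 ± 0.51) were lower with it. Srm was higher by 2.82 ± 0.37 (7.07-fold), Odc1 by 1.84 ± 0.63 and Sms by 1.01 ± 0.17. Amd1 (0.41 ± 0.51) and Oaz1 (0.27 ± 0.18) were not past the rule. Taken as the middle cell with 100 CPM added in place of the sum, the step of Sat1 was -3.52, and the middle EHT cell of a WT library had 0 to 39.3 CPM.

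From EHT to EMP, 1 of the 8 genes was higher and 0 lower, beside 9.75% and 13.0% of 8909 genes. That gene was Srm, higher by 0.83 ± 0.20 (1.77-fold). Sms followed it at 0.52 ± 0.07 and Odc1 at 0.40 ± 0.28, short of the rule. Sat1 was at 0.30 ± 0.24, with all 5 WT libraries above 0. Scaling by total UMIs moved the median of all genes by -0.14 at this step, and Sat1 was then at 0.15.

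**Figure D3:**
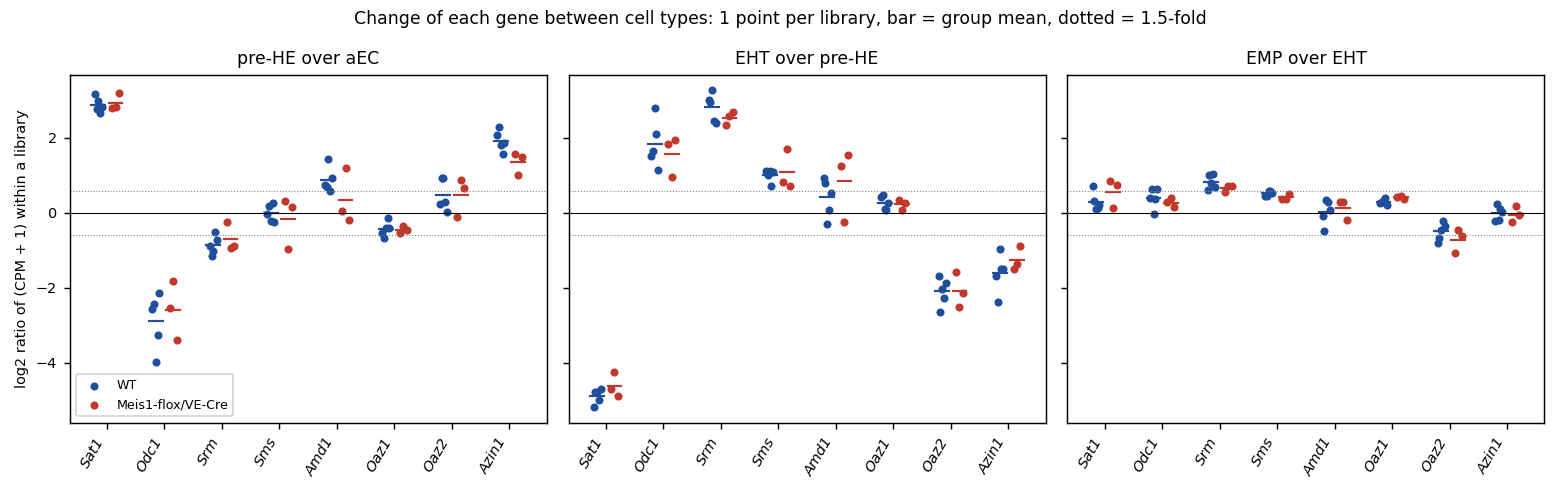
Log2 ratio of CPM plus 1 within each library for the 3 steps, with 1 point per library (blue, WT; red, Meis1-flox/VE-Cre), a bar at each group mean and dotted lines at 1.5-fold. Sat1 is near 2.9 at the first step and near -4.9 at the second in WT, Odc1 and Srm go the other way at both, and at the step from EHT to EMP the WT mean of Srm alone is past the line.

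Of 23 other genes of polyamine metabolism, chosen as a list, 13 were above the level minimum. From aEC to pre-HE, 2 of the 13 were higher and 5 lower, beside 10.3% and 13.3% of all genes. Higher were Atp13a3 (27.4 ± 4.63 to 104 ± 31.5 CPM) and Atp13a2 (12.1 ± 2.13 to 29.98 ± 16.3 CPM), which encode P5B-type ATPases that carry polyamines out of endosomes and lysosomes into the cytosol. Lower were Eif5a (1464 ± 144 to 635 ± 108 CPM), whose product carries the hypusine residue made from spermidine, Slc3a2 (214 ± 34.8 to 53.2 ± 16.8 CPM), the heavy chain of amino acid transporters, and Smox (34.6 ± 6.86 to 8.03 ± 4.87 CPM), which oxidizes spermine. Mtap, which recycles the by-product of Srm and Sms, was also lower (88.9 ± 8.46 to 41.3 ± 14.99 CPM). Paox, which oxidizes the acetylated polyamines that Sat1 makes, had a WT log2 ratio of -1.35 ± 1.68 and one of 0.01 in Meis1-flox/VE-Cre.

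From pre-HE to EHT, 4 of the 13 were higher and 1 lower, beside 22.1% and 19.3% of all genes. Higher were Eif5a (to 2172 ± 40.0 CPM in EHT), Mat2a (120 ± 26.6 to 280.1 ± 44.8 CPM), which makes S-adenosylmethionine, the substrate of Amd1, Mtap (to 102 ± 12.5 CPM) and Dohh (46.8 ± 8.54 to 74.7 ± 6.44 CPM), the second enzyme of hypusine formation. Atp13a3 was lower again, at 27.8 ± 6.27 CPM in EHT. From EHT to EMP, 3 of the 13 were higher and 1 lower, beside 9.75% and 13.0% of all genes. Higher were Atp13a3 (to 83.9 ± 21.7 CPM), Slc3a2 (78.5 ± 6.92 to 131 ± 10.7 CPM) and Dhps (35.8 ± 5.07 to 59.6 ± 3.17 CPM), the first enzyme of hypusine formation. Among these types Eif5a, Dohh and Mtap had their lowest WT mean in pre-HE, as Odc1 and Srm did.

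Summed Myc family genes (Myc, Mycn and Mycl) were at 45.6 CPM in WT aEC, 22.6 in pre-HE, 207 in EHT and 118 CPM in EMP. Summed cycling genes (10 genes of DNA replication and mitosis) were at 1014, 839, 1652 and 2015 CPM in the same order. Both had their lowest mean in pre-HE, where the ranges overlapped those of aEC. Whether these lists have a part in the levels of the polyamine genes was not tested.

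Genes with levels most like Sat1 or Odc1 over the cell types were found by Pearson's r of mean WT log2(CPM + 1) over 10 cell types, among 7790 genes. The points share libraries and clusters, so r is a description. For Sat1 the 5 highest were Lipa (0.953), Sidt2 (0.953), Ncstn (0.951), Atp6ap1 (0.942) and Adgre5 (0.925), and the 5 lowest Ddx23 (-0.970), Sumo3 (-0.966), Eif2b5 (-0.952), Taf1 (-0.943) and Taf6 (-0.937). In Meis1-flox/VE-Cre the values for the 5 highest were 0.765 to 0.972, and of the 5 lowest Taf6 turned to 0.749. For Odc1 the 5 highest were Bag1 (0.979), Itpa (0.978), Coa3 (0.968), Vdac1 (0.966) and Psmc6 (0.950), and the 5 lowest Por (-0.959), Tnip1 (-0.956), Aqp1 (-0.935), Clec2d (-0.931) and Pi16 (-0.922). Among the 8 genes, r was -0.753 between Sat1 and Odc1, 0.808 between Sat1 and Azin1 and -0.905 between Odc1 and Azin1.

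The genotypes were compared to ask whether loss of Meis1 in endothelium changes these genes within a cell type. Of 80 tests (8 genes in 10 cell types), 1 passed: Sat1 was higher in Meis1-flox/VE-Cre EMP. Each test was edgeR's quasi-likelihood test, two-sided, with Benjamini-Hochberg adjustment over all genes tested in that type and a threshold of 0.1. The SE of an edgeR log2 fold change was derived here as its size over the square root of the F statistic. At an unadjusted edgeR p under 0.05 there were 9, which were Amd1 in 6 types, Srm in vEC_2 and vEC_3 and Sat1 in EMP. Of all genes, 1473 of 10490 were under it in vEC_1, 1527 of 10669 in vEC_2 and 1485 of 10744 in vEC_3. The counts were 895 of 9691 in vEC_4, 1000 of 9540 in aEC, 263 of 3682 in pre-HE and 823 of 8670 in EHT. EMP had 1588 of 9172, Megakaryocytes 686 of 7770 and Myeloid cells 1764 of 11479. DESeq2 also called 1. The same test called 4.74% of 9172 genes in EMP (2.68% as higher), 3.26% of 11479 in Myeloid cells and in the other types 0.489% (pre-HE), 0.206% (Megakaryocytes), 0.127% (EHT), 0.0187% (vEC_2) and 0.0% (vEC_1, vEC_3, vEC_4 and aEC).

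Sat1 in EMP had 69.7, 56.0, 55.8, 60.4 and 54.0 CPM in WT 1 to 5 and 90.6, 76.0 and 88.9 CPM in Meis1-flox/VE-Cre 1 to 3. The groups did not overlap, but how many of all genes in EMP were apart in this way was not counted, so this adds nothing to the call. The log2 fold change was 0.55 (SE 0.12, edgeR adjusted p = 0.0446). The middle EMP cell had 28.1 to 44.6 CPM per WT library and 44.4 to 58.5 CPM per Meis1-flox/VE-Cre library. The call was lost without Meis1-flox/VE-Cre 1 (adjusted p = 0.196) or 3 (adjusted p = 0.137), and with depth, as median UMIs, added to the model (log2 fold change 0.72, adjusted p = 0.503). Against WT 5 alone, the 1 WT library of like depth, the log2 fold change of Sat1 was 0.68 in EMP. In Myeloid cells it was 0.77 against WT 5 alone and 0.10 against all 5 WT libraries. With 1 WT library the spread came from the 3 Meis1-flox/VE-Cre libraries only, and the WT library was assumed to vary like them, so only the effect size is given.

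Other RNA moved with genotype in EMP as well. Erythroid markers summed to 5.58 to 202 CPM in WT and 299.6 to 1921 CPM in Meis1-flox/VE-Cre, granulocyte markers to 665 to 1092 and 956 to 1919 CPM, and macrophage markers to 11.02 to 46.2 and 37.5 to 69.0 CPM. All 5 erythroid and all 5 macrophage genes were detected in both groups, and 1 of 6 granulocyte genes was at 0 in WT. Sat1 was at 410 ± 41.7 CPM in Meis1-flox/VE-Cre Myeloid cells. The part of this other RNA or of depth in the difference of Sat1 in EMP was not tested.

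Along the axis from aEC to EHT no genotype difference of Sat1 passed. The log2 fold change was -0.12 (SE 0.15) in aEC, -0.03 (SE 0.18) in pre-HE and 0.24 (SE 0.17) in EHT, with edgeR adjusted p of 0.813, 0.998 and 0.688. The aEC and pre-HE values were smaller in size than their errors and turned sign under several alternatives. For Odc1 the log2 fold changes over the 10 types were -0.21 to 0.33, for Srm -0.04 to 0.44, for Sms -0.04 to 0.23, for Oaz1 -0.07 to 0.06 and for Oaz2 -0.22 to 0.13. Azin1 ran from -0.46 in pre-HE to 0.50 in Megakaryocytes. None of these passed, the lowest edgeR adjusted p among the 6 genes being 0.318.

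Amd1 was higher by estimate in all 10 types, with log2 fold changes of 0.22 to 0.66 and edgeR adjusted p of 0.248 to 0.954, and none passed. Levels differed between libraries of 1 genotype. Over all cells Amd1 had 76.6, 34.7, 51.6, 52.6 and 88.7 CPM in WT 1 to 5 and 88.7, 77.1 and 91.2 CPM in Meis1-flox/VE-Cre. WT 5 thus had the level of the other group, and WT 1 at 76.6 CPM was close to the lowest Meis1-flox/VE-Cre library at 77.1 CPM. Amd2 had 1.56, 1.68, 1.86, 2.20 and 0.400 CPM in WT 1 to 5 and 0.450, 0.214 and 0.413 CPM in Meis1-flox/VE-Cre, so WT 5 went with the Meis1-flox/VE-Cre libraries in this gene too. Against WT 5 alone the log2 fold changes of Amd1 were -0.37 to 0.23, and without WT 5 it passed in 5 types. Leaving out WT 5 also raised the calls over all genes in EMP, from 435 of 9172 to 828 of 8999. The share of all genes is not given for the other types, so these calls do not set Amd1 apart.

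**Figure D4:**
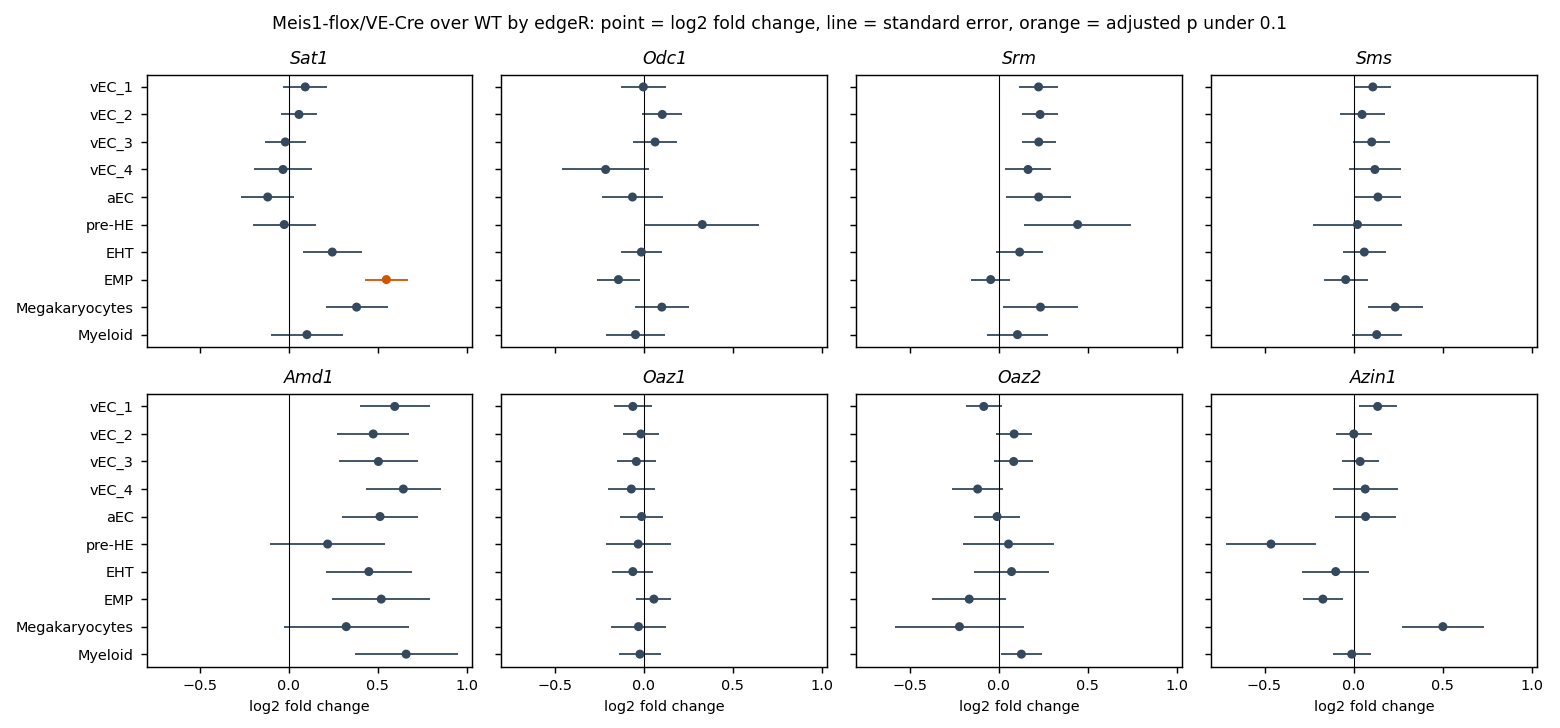
Log2 fold change of Meis1-flox/VE-Cre over WT by edgeR for each gene in each cell type (points, with the standard error as a line; orange where the adjusted p was under 0.1). Sat1 in EMP at 0.55 is the 1 orange point, and Amd1 is right of 0 in all 10 types.

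Whether a step differed between the genotypes was tested as an interaction with the library as a block. Of the 24 tests (8 genes at 3 steps), 0 passed by edgeR and 0 by DESeq2, and 1 had an unadjusted edgeR p under 0.05. Of all genes, 489 of 10007, 390 of 8556 and 778 of 10270 were under that unadjusted p at the 3 steps. The share of all genes called was 0.05%, 0.0351% and 0.389% at the 3 steps. The step of Sat1 from aEC to pre-HE was 2.88 ± 0.19 in WT and 2.94 ± 0.22 in Meis1-flox/VE-Cre, and the edgeR difference was 0.05 (SE 0.14, adjusted p = 1). From pre-HE to EHT the difference was 0.27 (SE 0.18, adjusted p = 1). The 1 gene with the low unadjusted p was Azin1 from aEC to pre-HE, at 1.93 ± 0.27 in WT and 1.34 ± 0.30 in Meis1-flox/VE-Cre (edgeR difference -0.59, SE 0.27, adjusted p = 0.960). A p over the threshold does not show that the steps were equal.

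EHT cells differ in surface CD43, which the study describes as increasing during the transition. The clusters were drawn on RNA alone, so the tags are a separate readout. EHT cells were split within each library at the median CD43 tag count, and CD43-high and CD43-low cells were compared with the library as a block. WT 4 had 0 tag counts and was left out, which left 7 libraries. Sat1 was lower in the CD43-high cells (edgeR log2 fold change -0.81, SE 0.17, adjusted p = 0.00163), and it was the 1 of the 8 genes that passed, where 11.0% of 7450 genes were called and 6.63% as lower.

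In the CD43-low cells Sat1 had 70.7, 68.5, 56.3 and 61.8 CPM in WT 1, 2, 3 and 5 and 64.1, 131.6 and 50.4 CPM in Meis1-flox/VE-Cre 1 to 3. In the CD43-high cells it had 32.0, 32.9, 54.1, 36.4, 45.3, 23.8 and 57.0 CPM in the same order. It was lower in 6 of 7 libraries, by little in WT 3, and higher in Meis1-flox/VE-Cre 3. CD43-low and CD43-high cells held 260 and 198 Sat1 UMIs in all, and the largest number in 1 cell was 10. Without Meis1-flox/VE-Cre 2, where the difference was largest, the log2 fold change was -0.68 (edgeR adjusted p = 0.00895). Thinned to 5000 UMIs per cell it was -0.81 and did not pass (adjusted p = 0.134), and by tag count per RNA UMI it was -0.59 (adjusted p = 0.0681). Over all alternatives the adjusted p ran from 3.13e-05 to 0.134.

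The other 7 genes did not pass. Sms was higher in the CD43-high cells in 7 of 7 libraries, from a mean of 246 to 292 CPM, and did not pass (edgeR log2 fold change 0.18, SE 0.08, adjusted p = 0.187). Odc1 was higher in 6 of 7 libraries, from 205 to 232 CPM (0.12, SE 0.09, adjusted p = 0.523). Srm, Amd1, Oaz1, Oaz2 and Azin1 had log2 fold changes of -0.07 to 0.20. Of the other pathway list, 11 genes were tested and 2 passed. Mat2b, a regulatory subunit of S-adenosylmethionine synthesis, was lower (63.8 to 47.5 CPM, -0.51, SE 0.16, adjusted p = 0.0346), and Slc7a1, an arginine and lysine importer, was higher (19.9 to 31.9 CPM, 0.67, SE 0.23, adjusted p = 0.0634), both by edgeR. DESeq2 called neither.

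Other measures moved with the CD43 tag in EHT. Spn, which encodes CD43, was higher in the CD43-high cells in 7 of 7 libraries (15.8 to 33.8 CPM). Summed endothelial markers were lower in 7 of 7 (means of 468 and 256 CPM, ranges of 374 to 691 and 179 to 409), as were summed arterial markers (86.8 and 15.6 CPM). Summed cycling genes were higher in 7 of 7 (1592 and 1899 CPM). Median UMIs per cell were also higher in the CD43-high cells, at 9998 to 45593 against 8098 to 29947 over the libraries. Whether endothelial RNA, cycling or depth has a part in the difference of Sat1 was not tested.

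**Figure D5:**
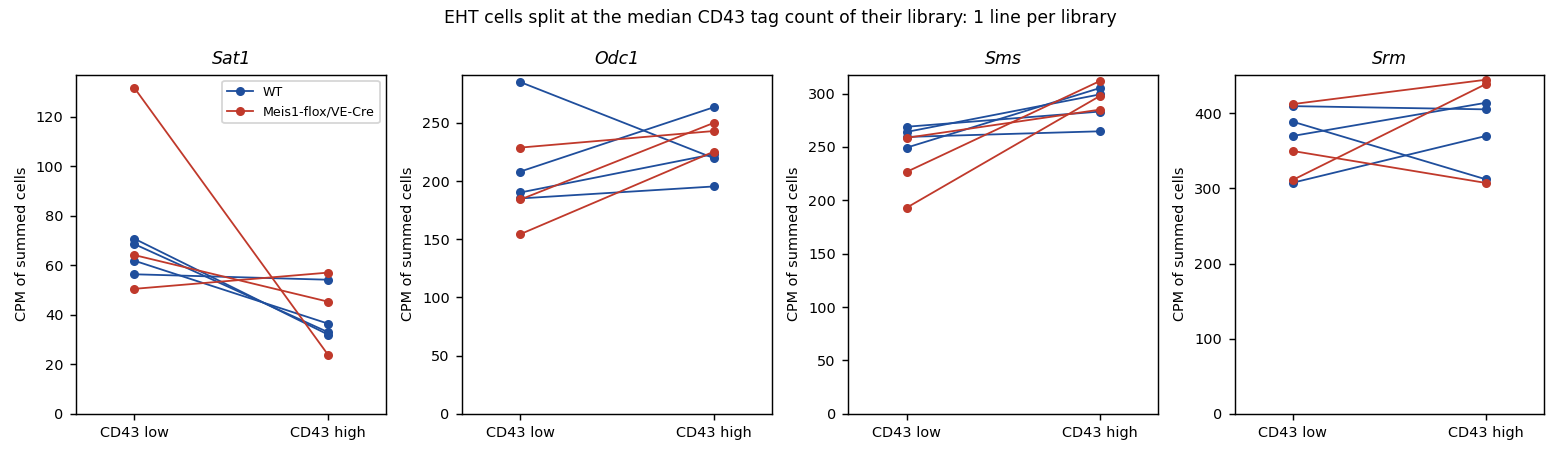
CPM of Sat1, Odc1, Sms and Srm in EHT cells below and above the median CD43 tag count of their library, with 1 line per library (blue, 4 WT; red, 3 Meis1-flox/VE-Cre) and axes from 0. Sat1 is lower in the CD43-high cells in 6 of 7 lines and Sms is higher in 7 of 7.

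A split by the CD45 tag gave no call among the 8 genes. By edgeR 0.326% of 7367 genes passed, and 589 had an unadjusted p under 0.05. Of the 8 genes 0 passed by edgeR, 0 by DESeq2 and 0 had an unadjusted edgeR p under 0.05. Sat1 had 50.9 CPM in the CD45-low and 58.0 CPM in the CD45-high cells by mean (edgeR log2 fold change 0.13, SE 0.19, adjusted p = 0.928). CD45 tag counts were low in 4 libraries, with medians of 1 to 4 in the CD45-low and 5.5 to 11 in the CD45-high cells, so the split was coarse there. The difference between the CD43 and CD45 results was not tested.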

How the data were processed

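Unnormalized UMI counts of 15168 cells, as the authors deposited them, covered 28014 genes and 6 antibody tags. Submitters' processing notes name Cell Ranger 3.0.2 and mm10. Per the methods, cells were filtered on detected genes and mitochondrial share, integrated, clustered on RNA and named by hand. All values were whole, with at least 2001 genes per cell. A second deposited table gave sample and cell type.

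Here counts were added up per library and cell type, over at least 10 cells. edgeR 4.0.16 in R 4.3.3 (TMM, filterByExpr, quasi-likelihood, two-sided, Benjamini-Hochberg over all genes, threshold 0.1) was the test and DESeq2 1.42.0 an alternative. Steps used genes with a mean level of at least 5 CPM. Likeness used genes with at least 20 CPM in 1 type. Scrublet (scanpy 1.11.5) marked 118 doublets (0.778%), which were kept except in an alternative. For thinning, 101 cells under 5000 UMIs were left out.

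The members, lists and tests were chosen with earlier results of these data known. Named genes are the 8 members, genes of a fixed pathway list past a call rule with at least 20 CPM in a stage, and the 5 most and least like Sat1 and Odc1. The study describes the samples as independent, each a pool of embryos, so p-values measure the spread between pools. UMIs per library set the precision, and low pre-HE levels rest on few UMIs.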

Additional observations from a re-analysis of the deposited data

Results flagged for a closer look

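Of 80 sets of WT levels (8 genes in 10 cell types), 6 held a library that stood far from the others of its group by Dixon's ratio, where chance gives about 1 in 20. Sat1 in aEC was at 278 CPM in WT 4, against 184 CPM in the nearest WT library. Odc1 in vEC_4 was at 406 CPM in WT 4, against 193 CPM. Sms in EHT was at 201 CPM in WT 4, against 251 CPM. Azin1 was at 47.9 CPM in EMP of WT 2, against 52.8 CPM, and at 66.1 CPM in Myeloid cells of WT 1, against 57.7 CPM. Oaz2 in Myeloid cells was at 12.8 CPM in WT 3, against 17.1 CPM. WT 4 was thus the library apart in 3 of the 6. Without WT 4 the step of Sat1 from aEC to pre-HE was 2.93, against 2.88 with it.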

How the results depend on the processing

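Under the alternatives, 123 recomputed summary values kept their count of calls or stayed within 1 SD, and 15 did not. A count was taken as kept at up to 1.5-fold from the main one, whichever genes were called. Of the steps and levels of single genes 321 stayed within 1 SD and 27 moved further. The 1 genotype call of 80 became 3 with no filter, 0 with median UMIs as covariate, 12 with the replicate block (Amd1 as higher in 8 types with edgeR adjusted p of 0.000112 to 0.0383, Srm in 3 and Sat1 in 1), 5 in libraries 1 to 3 of each genotype without a block (chosen after seeing the data), and 0 to 8 when 1 library was left out (8 without WT 5, 0 without Meis1-flox/VE-Cre 1 or 3). The labels give replicate numbers but no pairing. In pre-HE same-numbered libraries had r of 0.06, -0.03 and 0.03 between their deviations. It was -0.02, 0.15 and 0.15 in aEC and -0.08, 0.13 and 0.21 in vEC_2. WT 2 and WT 3 were most like the Meis1-flox/VE-Cre library of their own number in vEC_1 to vEC_4, aEC and EHT, and WT 1 was not. In pre-HE and EMP, WT 1 and WT 3 were, and in Myeloid cells WT 2 alone. Whether same-numbered libraries shared a batch was not tested. Members called between CD43 groups were 0 after thinning, with fewer genes tested (2997), and 2 without doublet calls, where Sms joined (adjusted p = 0.0988). Without the library block 1 member was still called between CD43 groups and 0 between CD45 groups. For the genotype difference of the steps, a replicate block taken as replicate number by step (added after seeing the data) called 0 of 24 members and 19, 44 and 139 of all genes at the 3 steps, against 5, 3 and 40 without it, and the difference of Sat1 from aEC to pre-HE was -0.08 in place of 0.05, uncalled in both. The step of Sat1 in WT was 3.08 by total UMIs from aEC to pre-HE, and -4.63 thinned and -3.52 by the middle cell from pre-HE to EHT. By the middle cell the log2 ratio of Sat1 to the synthesis sum was 1.86 in pre-HE, with steps of 3.60 and -4.72. Genotype values that turned sign were all uncalled, and the cause was not tested. With median UMIs as covariate these were Sat1 in aEC (0.027) and pre-HE (0.43) and Amd1 in pre-HE (-0.60), EHT (-0.084), EMP (-0.19) and Megakaryocytes (-0.53). Against WT 5 alone they were Sat1 in aEC (0.076) and pre-HE (0.19) and Amd1 in pre-HE (-0.37), EHT (-0.16), EMP (-0.14) and Myeloid cells (-0.10). Sat1 in aEC was 0.040 with the replicate block and 0.029 in libraries 1 to 3 unblocked. With 1 library left out, Sat1 ran from -0.17 to 0.040 in aEC and from -0.15 to 0.029 in pre-HE, and Amd1 in pre-HE from -0.31 to 0.45. Odc1 between CD43 groups was -0.078 by tag count per RNA UMI. Over all genes, calls in EMP were 435 of 9172, against 1094 of 9980 with the replicate block and 13 of 9480 with median UMIs as covariate. For the other types the share of all genes called with the replicate block is not given. The count of Amd1 calls with it thus does not set Amd1 apart. They were 129 thinned, 164 at a threshold of 0.05 and 44 to 828 with 1 library left out. Calls by CD43 were 823, against 306 by DESeq2, 343 without the library block and 419 by tag count per RNA UMI. They were 212 thinned and 494 to 849 with 1 library left out. Calls by CD45 were 24, against 1 without the library block to 119 with no filter.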
